A study of Mus musculus with 6 samples.

Results

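The 10 genes described here belong to the NRF2 antioxidant response. They were chosen by name from the 78298 genes of the table and comprised the transcription factor gene Nfe2l2, its inhibitor gene Keap1 and 8 genes that NRF2 is known to induce, Nqo1, Hmox1, Gclc, Gclm, Srxn1, Txnrd1, Slc7a11 and G6pdx. All 10 were found, each under a single identifier. All 10 passed the low-count filter, which kept 15522 genes, with a mean of 239.7 counts per sample (Nqo1) to 7480.7 (Txnrd1). RNA was sequenced from RENCA cells, an established mouse renal adenocarcinoma line, in 3 oe-AQP1 and 3 oe-NC samples. The oe-AQP1 cells carried a lentivirus with the mouse Aqp1 coding sequence under the ubiquitin C promoter, and the oe-NC cells carried the empty vector. Both groups had been kept in puromycin (2 μg/mL) over 14 days and received no other treatment. Cells without virus were not analysed here.

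NRF2, the product of Nfe2l2, is a transcription factor that is made and destroyed continuously. KEAP1 holds it to the CUL3-RBX1 ubiquitin ligase, and oxidants or electrophiles that modify KEAP1 let NRF2 escape, enter the nucleus, pair with a small MAF protein and bind antioxidant response elements (AREs) near its target genes. The targets make glutathione, reduce thioredoxin, supply NADPH, degrade heme and detoxify quinones. Kidney tubule cells carry a heavy oxidative load, and the pathway is altered in some renal cancers. Because KEAP1 acts on NRF2 protein, transcript levels do not measure how much NRF2 a cell holds.

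The samples held 18385714.02 to 21920898.67 expected counts. The counts of Aqp1 were 7713, 8545 and 7838 with the Aqp1 virus and 41, 25 and 45 with the empty vector, as labelled. Counts were scaled to library size (CPM) with TMM factors and compared by limma-voom. FDR is its Benjamini-Hochberg adjusted p over all genes tested. A positive log2 fold change (log2FC) means a higher level with Aqp1. One oe-NC library stood apart from its group: oe-NC sample 1 differed from samples 2 and 3 by a chi-square of 9.81 and 11.4 per gene, against 2.0 between samples 2 and 3 and 1.71 to 2.04 among the oe-AQP1 samples. Whether the 3 samples of a group came from separate transductions is not given in the sources used here, so the p-values measure the spread between these samples, which may be technical. The study describes a stable line with AQP1 overexpression. If each group came from a single transduction, other differences between the oe-AQP1 and oe-NC cells cannot be told apart from an effect of Aqp1. The renal genes Pax2 and Pax8 and the keratins Krt8 and Krt18 were expressed, whereas Epcam had no count in any sample and Slc34a1 had at most 1. Among renal tubule genes, Lrp2 was lower with Aqp1 (log2FC = -0.93, FDR = 1.56e-05), and Pax2, Pax8 and Cubn did not pass. Of 7 macrophage markers, Adgre1 and C1qa had no count and Ptprc and Itgam at most 3, and the list summed to 47.7 to 51.0 CPM with Aqp1 and 55.7 to 58.8 CPM without, mostly from Cd68 and Lyz2. Of the 3 macrophage markers tested, Csf1r (log2FC = -1.51, FDR = 1.31e-05) and Lyz2 (log2FC = -0.52, FDR = 2.73e-04) were lower and Cd68 did not pass. Of 3 fibroblast markers tested, Col1a1 was lower (log2FC = -0.73, FDR = 0.00238), Pdgfrb was higher (log2FC = 0.34, FDR = 0.00284) and Col1a2 did not pass. The 4 epithelial markers summed to 466.2 to 478.3 CPM with Aqp1 and 582.0 to 639.0 CPM without, and 3 of them were lower at an FDR under 0.05, with Epcam at 0. The part of these shifts in the results below was not tested. In bulk RNA, fewer cells of a type and less RNA per cell cannot be told apart.

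The window of 250 bases before the start of each gene's canonical transcript (GENCODE M39, GRCm39) was searched on both strands for the ARE core TGACNNNGC. It was found in 2 of the 10 windows, against 9.70% of 21757 protein-coding genes. The matches lay 54 to 46 bases before the start of Gclm and 65 to 57 bases before that of Txnrd1. They are shown in capitals, 5′ to 3′ on the strand of the gene, where they read as the reverse complement of the core. The Keap1 window is shown beside them because Keap1 differed most between the groups, and it held no match. The windows are chr3:122038876-122039125 (forward strand) for Gclm, chr10:82694763-82695012 (forward strand) for Txnrd1 and chr9:21150680-21150929 (reverse strand) for Keap1. A match is only a match of letters, and the absence of one says nothing of AREs elsewhere.
Gclm: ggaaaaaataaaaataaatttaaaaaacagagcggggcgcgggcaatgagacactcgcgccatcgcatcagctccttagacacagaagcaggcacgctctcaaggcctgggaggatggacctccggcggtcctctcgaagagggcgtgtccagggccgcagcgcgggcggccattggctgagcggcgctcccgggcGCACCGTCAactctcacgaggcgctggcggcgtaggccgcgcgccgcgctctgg
Txnrd1: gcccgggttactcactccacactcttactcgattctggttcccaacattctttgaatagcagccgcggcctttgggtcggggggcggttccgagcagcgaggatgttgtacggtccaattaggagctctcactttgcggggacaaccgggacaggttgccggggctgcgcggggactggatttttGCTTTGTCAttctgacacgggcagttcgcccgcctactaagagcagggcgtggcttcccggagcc
Keap1: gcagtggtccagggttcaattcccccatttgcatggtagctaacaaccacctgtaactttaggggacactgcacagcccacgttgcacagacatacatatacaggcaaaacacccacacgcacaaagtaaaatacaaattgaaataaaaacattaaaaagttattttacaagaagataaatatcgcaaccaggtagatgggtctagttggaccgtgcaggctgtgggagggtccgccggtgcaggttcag

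Keap1 was the member that rose. Of the 10 genes, Keap1 was higher and Srxn1, Txnrd1 and G6pdx were lower with Aqp1 at an FDR under 0.05, and the other 6 did not pass the test. Among all 15522 genes tested, 16.0% were higher and 16.6% lower by the same rule, 32.5% in all. Among genes with a mean of at least 100 counts, as all 10 had, 39.1% were called, so that 4 of 10 genes lay near the background. Keap1 rose by 49.2% (95% interval 33.7 to 66.6), whereas the decreases were between 7.31% and 10.4%. The study called a gene differentially expressed when its absolute log2FC exceeded 1 at an FDR under 0.05, and 0 of the 10 genes qualified by limma-voom, against 5.23% of all genes tested. The count was also 0 by edgeR's quasi-likelihood test, by DESeq2 and by limma-voom with an unadjusted p under 0.05 in place of the FDR. With an unadjusted p under 0.05 alone, 6 genes passed, 1 higher and 5 lower. The share of all genes at that unadjusted threshold is not given here, and it cannot be under the 32.5% that passed the FDR. The median log2FC of the 10 genes was -0.11 and their median absolute log2FC 0.12, beside 0 and 0.18 over all genes tested.

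**Figure D1:**
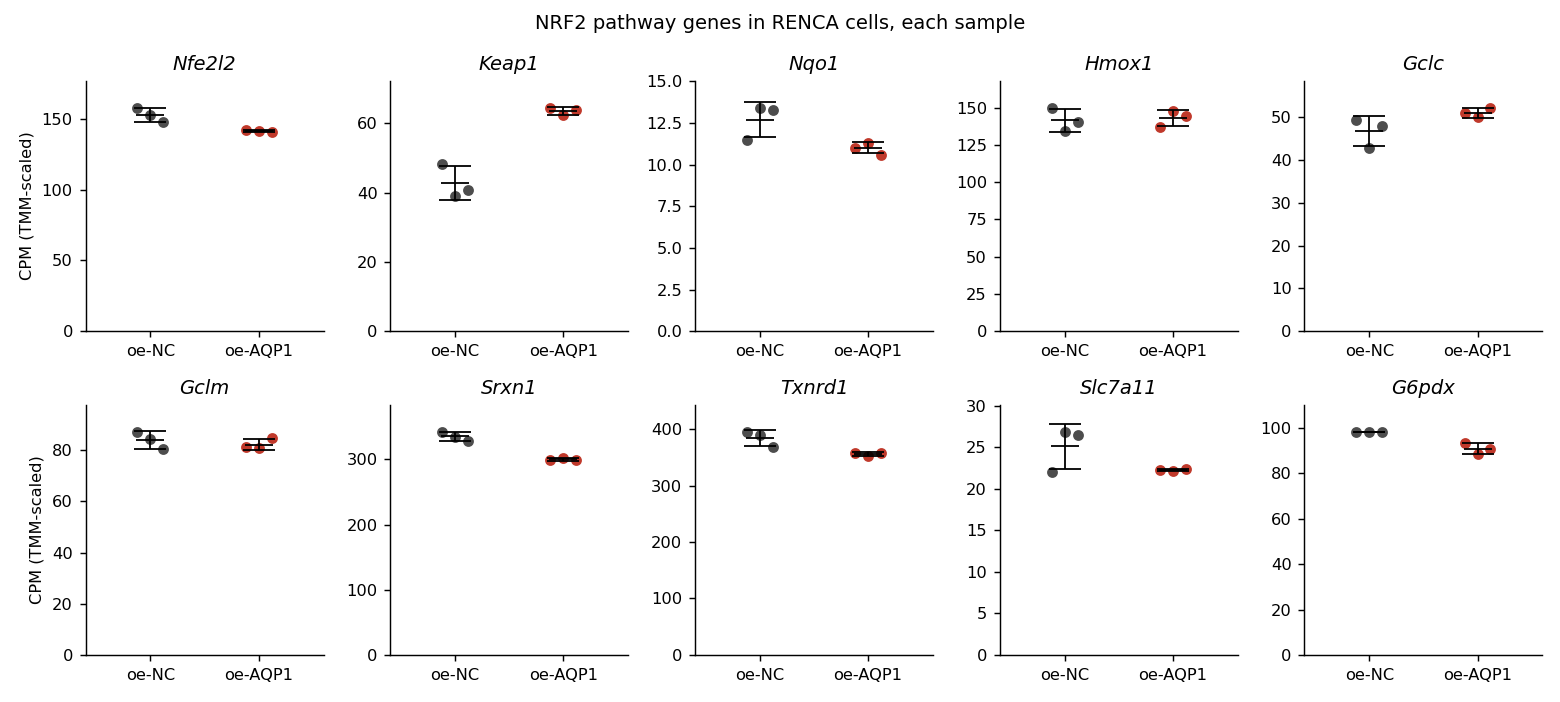
Level of each of the 10 genes in every sample, in CPM after TMM scaling (vertical axes start at 0 and differ between panels); points are samples, and bars give the mean ± SD of 3 samples. Keap1 lay at 62.3 to 64.5 CPM in oe-AQP1 samples and at 39.0 to 48.2 CPM in oe-NC samples, while Hmox1, Gclm and Slc7a11 overlapped between the groups.

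Keap1 (ENSMUSG00000003308, chromosome 9, 21141026 to 21150679, reverse strand) encodes the adaptor that presents NRF2 to the ubiquitin ligase. The oe-AQP1 samples held 1276, 1369 and 1311 Keap1 counts, and the oe-NC samples 947, 713 and 870. Every oe-AQP1 sample lay above every oe-NC sample, and oe-NC sample 1 was the highest of its group. Mean Keap1 levels were 63.5 ± 1.16 CPM with Aqp1 and 42.7 ± 4.90 CPM with the empty vector (SD, n = 3 each). By limma-voom its log2FC came to 0.58 ± 0.07 (SE) with FDR = 1.74e-04, a larger absolute log2FC than that of 86.7% of the genes tested. By exact two-sided permutation, p was 0.1, the lowest value that groups of 3 can reach. Under the 17 alternative settings the log2FC stayed between 0.52 and 0.67, with the highest FDR at 0.00195. Without oe-NC sample 1 it was 0.67.

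The expected counts of Keap1 were not whole numbers in any of the 6 samples, as happens where reads are shared among genes. The lncRNA genes Gm16754 and Gm68155 overlap Keap1 on the opposite strand by 620 and 849 exon bases. Their counts together came to 25.22 to 35.46 per sample, against 712.54 to 1369.21 for Keap1. Within 100 kb of Keap1, 11 other genes were tested, and none was higher at an FDR under 0.05. Slc44a2, a choline transporter-like gene, was lower (log2FC = -0.16, FDR = 0.0286). The nearest protein-coding genes were S1pr5 on one side, with a log2FC of 0.16 (FDR = 0.482), and Pde4a on the other, with a log2FC of -0.17 (FDR = 0.0902). These neighbors were looked up after the value of Keap1 was known.

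Nfe2l2 (ENSMUSG00000015839, chromosome 2, 75504739 to 75534985, reverse strand) encodes NRF2 itself. It had 142.1, 141.7 and 140.7 CPM in the oe-AQP1 samples and 157.7, 152.9 and 147.4 CPM in the oe-NC samples. The groups did not overlap, and the difference was small beside the levels. Its log2FC was -0.11 (95% interval -0.20 to -0.02) and did not pass the test (FDR = 0.0581 by limma-voom). It passed without oe-NC sample 1 (log2FC = -0.08, FDR = 0.0221) and without oe-NC sample 3 (log2FC = -0.14, FDR = 0.0395). With all samples kept, it passed by limma-voom with sample quality weights (log2FC = -0.09, FDR = 0.0264). It also passed with no filter beyond 1 count in total (log2FC = -0.13, FDR = 0.0459).

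The ratio of Nfe2l2 to Keap1 was taken within each sample, where library scaling cancels. On the log2 scale of CPM per kb of exon it was 1.20, 1.25 and 1.20 in the oe-AQP1 samples and 1.77, 2.03 and 1.91 in the oe-NC samples. The oe-AQP1 samples thus lay below all oe-NC samples. The mean difference was -0.69, a ratio 0.62 times that of oe-NC cells (exact two-sided permutation test, p = 0.1, the smallest p possible). When any 1 sample was dropped, the difference stayed between -0.76 and -0.63. For Nfe2l2 against Bach1, a repressor that competes with NRF2 at AREs, the difference was -0.20 (exact permutation p = 0.1), from means of 2.28 ± 0.08 with Aqp1 and 2.48 ± 0.03 without (SD, n = 3). Over the 4 ratios computed, all exact p-values were 0.1 and stayed at 0.1 after adjustment over the 4. The 3 genes with the highest Pearson r to Nfe2l2 in log2 CPM, of 10804 genes with a mean of at least 100 counts, were Tef, Snx9 and Impdh1, each at 0.998 over the 6 samples, which fall into 2 groups.

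**Figure D2:**
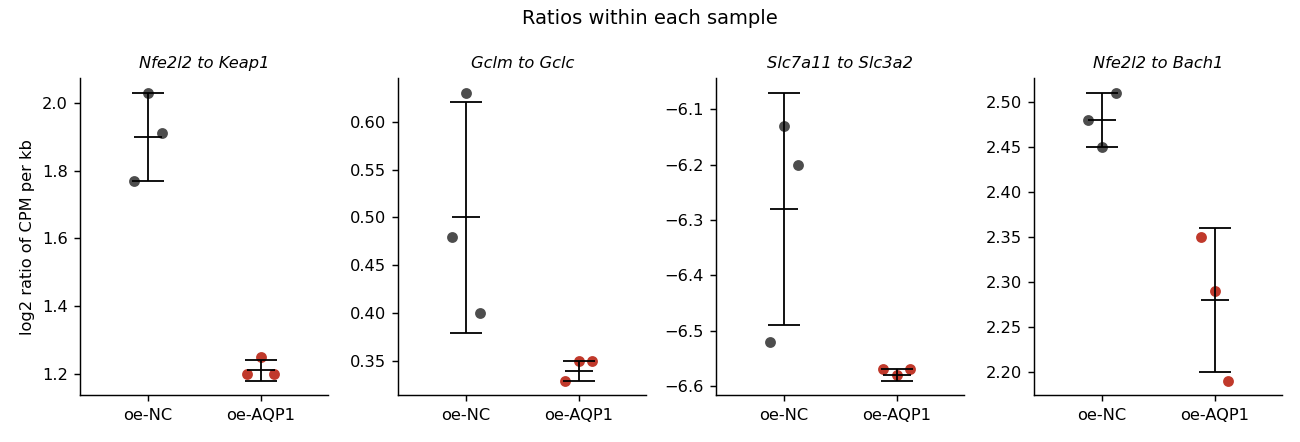
Log2 ratio of CPM per kb of exon for 4 gene pairs within each sample (vertical axes differ and do not start at 0); points are samples, and bars give the mean ± SD of 3 samples. The ratio of Nfe2l2 to Keap1 ranged from 1.20 to 1.25 with Aqp1 and from 1.77 to 2.03 without, and in the other 3 pairs the oe-AQP1 samples also lay below the oe-NC samples.

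Srxn1, Txnrd1 and Nqo1 act on thiols and quinones. Srxn1 (ENSMUSG00000032802, chromosome 2, 151947436 to 151957687, forward strand) encodes sulfiredoxin, which restores over-oxidized peroxiredoxins. It had 298.6, 302.6 and 299.3 CPM in the oe-AQP1 samples and 342.7, 334.0 and 328.9 CPM in the oe-NC samples, with no overlap. Its mean fell from 335.2 ± 6.99 to 300.2 ± 2.16 CPM (SD, n = 3). By limma-voom this was a log2FC of -0.16 ± 0.03 (SE) with FDR = 0.00488. The call held under all 17 alternatives, with a log2FC of -0.18 to -0.14 and a highest FDR of 0.0325.

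Txnrd1 (ENSMUSG00000020250, chromosome 10, 82669785 to 82733546, forward strand) encodes the cytosolic thioredoxin reductase. It had 357.0, 352.2 and 358.3 CPM in the oe-AQP1 samples and 395.6, 389.5 and 367.5 CPM in the oe-NC samples. All oe-AQP1 samples lay below all oe-NC samples, by the least against oe-NC sample 3. Its log2FC of -0.11 ± 0.04 (SE) passed narrowly (FDR = 0.0467 by limma-voom). The call was lost without oe-AQP1 sample 1 (FDR = 0.127), 2 (FDR = 0.165) or 3 (FDR = 0.121) and without oe-NC sample 2 (FDR = 0.120), and with DESeq2 (FDR = 0.0844).

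Nqo1 (ENSMUSG00000003849, chromosome 8, 108113835 to 108129934, reverse strand) encodes a quinone reductase that is widely used as a readout of NRF2. It had 11.0, 11.3 and 10.6 CPM in the oe-AQP1 samples and 11.5, 13.4 and 13.3 CPM in the oe-NC samples. Its values did not overlap between the groups, but oe-NC sample 1 lay next to the oe-AQP1 samples. The log2FC of -0.21 (95% interval -0.41 to -0.02) did not pass the test (FDR = 0.0872 by limma-voom). Without oe-NC sample 1 it was -0.29 (FDR = 0.0128), and by limma-voom with sample quality weights it was -0.27 (FDR = 0.0116).

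Gclc, Gclm and Slc7a11 serve glutathione synthesis. Gclc (ENSMUSG00000032350, chromosome 9, 77661797 to 77701770, forward strand) encodes the catalytic subunit of glutamate-cysteine ligase, the rate-limiting enzyme of that synthesis. It had 50.9, 50.0 and 52.2 CPM in the oe-AQP1 samples and 49.4, 42.9 and 48.0 CPM in the oe-NC samples. The groups parted by a small gap above oe-NC sample 1, and the log2FC of 0.13 (95% interval -0.01 to 0.26) did not pass the test (FDR = 0.135 by limma-voom). Without oe-NC sample 1 the log2FC was 0.16 (FDR = 0.0162). Without oe-NC sample 2 it was 0.06 (FDR = 0.418).

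Gclm (ENSMUSG00000028124, chromosome 3, 122039126 to 122065061, forward strand) encodes the modifier subunit of the same ligase. It had 81.3, 80.8 and 84.7 CPM in the oe-AQP1 samples and 87.3, 84.3 and 80.5 CPM in the oe-NC samples. The groups overlapped, and the log2FC was -0.03 (95% interval -0.13 to 0.07, FDR = 0.666 by limma-voom), which corresponds to a change between -8.80% and 5.23%. The lncRNA gene Gm17494 overlaps Gclm on the opposite strand by 869 exon bases and had 126.88 to 217.43 counts per sample. The log2 ratio of Gclm to Gclc was 0.33, 0.35 and 0.35 in the oe-AQP1 and 0.48, 0.63 and 0.40 in the oe-NC samples, a difference of -0.16 (exact permutation p = 0.1).

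Slc7a11 (ENSMUSG00000027737, chromosome 3, 49846975 to 50398070, reverse strand) encodes the cystine carrier of the system xc- exchanger. It had 22.3, 22.2 and 22.4 CPM in the oe-AQP1 samples and 22.0, 26.9 and 26.5 CPM in the oe-NC samples. Of the oe-NC samples, only sample 1 did not lie above the oe-AQP1 values but just below them, so the groups overlapped because of that sample. The log2FC of -0.17 (95% interval -0.35 to 0.01) did not pass the test (FDR = 0.148 by limma-voom), and without oe-NC sample 1 it was -0.26 (FDR = 0.00178). Slc3a2, the heavy chain that carries SLC7A11 to the membrane, was higher (log2FC = 0.13, FDR = 0.0161), a call that was lost without oe-AQP1 sample 1 (FDR = 0.0679), 2 (FDR = 0.0727) or 3 (FDR = 0.0741) or oe-NC sample 2 (FDR = 0.0720). The log2 ratio of Slc7a11 to Slc3a2 was -6.57, -6.58 and -6.57 in the oe-AQP1 and -6.52, -6.13 and -6.20 in the oe-NC samples (difference -0.29, exact permutation p = 0.1).

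Hmox1 and G6pdx stand for heme breakdown and NADPH supply. Hmox1 (ENSMUSG00000005413, chromosome 8, 75820241 to 75827217, forward strand) encodes heme oxygenase 1, which oxidative stress strongly induces in many cells. It had 137.3, 147.9 and 144.6 CPM in the oe-AQP1 samples and 149.9, 134.4 and 140.1 CPM in the oe-NC samples. The groups overlapped throughout, and the log2FC was 0.02 (95% interval -0.09 to 0.13, FDR = 0.800 by limma-voom). That interval corresponds to a change between -6.13% and 9.42%.

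G6pdx (ENSMUSG00000031400, chromosome X, 73449857 to 73472819, reverse strand) encodes glucose-6-phosphate dehydrogenase, which feeds the pentose phosphate pathway. It had 93.2, 88.5 and 90.6 CPM in the oe-AQP1 samples and 98.4 CPM in each oe-NC sample. The G6pdx log2FC of -0.12 ± 0.04 (SE) passed narrowly (FDR = 0.0472 by limma-voom). Among the fits that left out 1 sample, the call held only without oe-NC sample 1 (FDR = 0.00888). It was lost without oe-AQP1 sample 1 (FDR = 0.0759), 2 (FDR = 0.189) or 3 (FDR = 0.135), without oe-NC sample 2 (FDR = 0.0940) or 3 (FDR = 0.0911), and with edgeR's quasi-likelihood test (FDR = 0.0558) and DESeq2 (FDR = 0.141). G6pdx shares 526 exon bases with Ikbkg on the opposite strand, which had 840.32 to 1064.01 counts per sample.

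**Figure D3:**
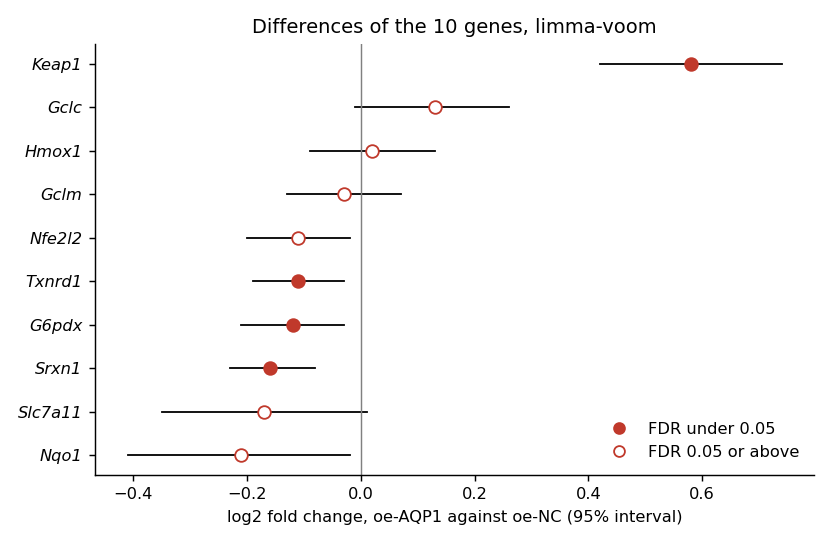
Log2FC (oe-AQP1 over oe-NC) with its 95% interval for the 10 genes, by limma-voom on 3 samples per group; filled points have an FDR under 0.05. Keap1 stands alone at 0.58 (0.42 to 0.74), and the other 9 genes lie between -0.21 and 0.13.

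**Figure D4:**
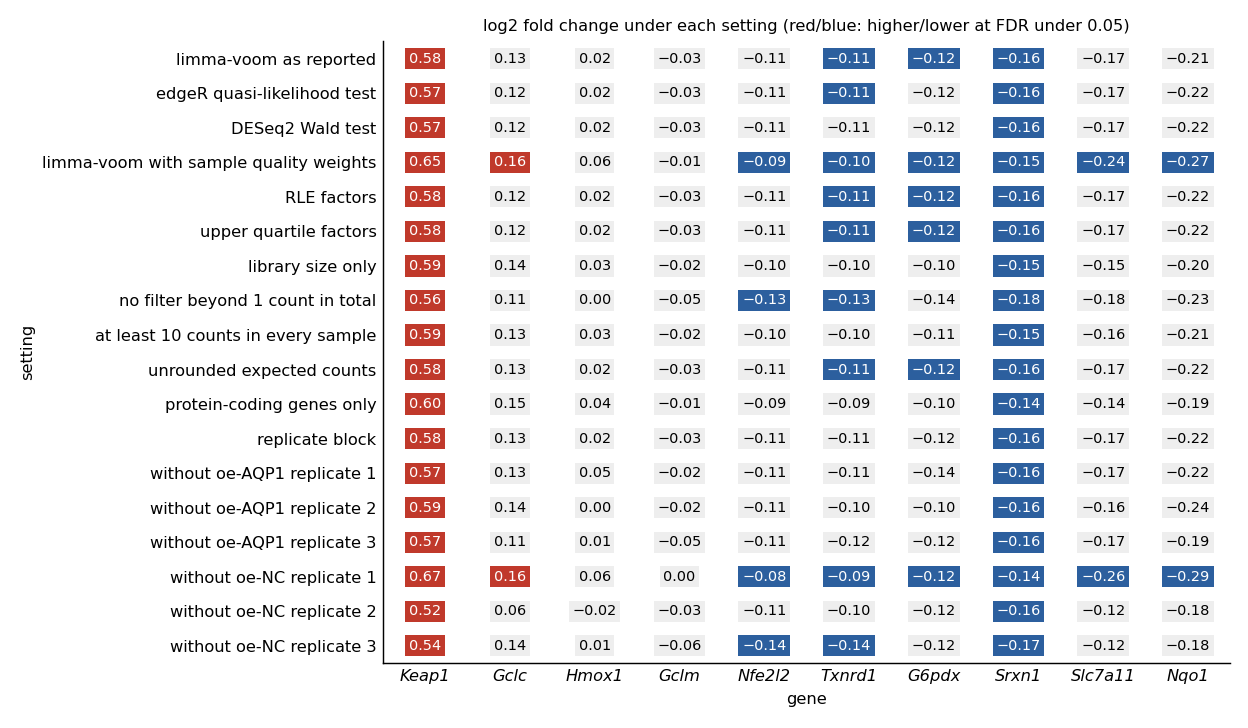
Log2 fold change of the 10 genes (columns) under each setting (rows); red cells are higher and blue cells lower with Aqp1 at an FDR under 0.05, and grey cells did not pass. Keap1 and Srxn1 are colored in every row, and leaving out oe-NC replicate 1 colors 8 of the 10 genes. Without that replicate 40.1% of all genes tested are called, against 32.5% with all samples.

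Of the 10 genes, 7 had no overlap between the groups, 2 higher (Keap1 and Gclc) and 5 lower (Nfe2l2, Nqo1, Srxn1, Txnrd1 and G6pdx), where 47.3% of all genes tested had none. Without oe-NC sample 1, 2 genes were higher (Keap1 and Gclc) and 6 lower (those 5 and Slc7a11) at an FDR under 0.05, while 40.1% of all genes tested were then called. With library size alone in place of TMM, the median log2FC of all genes moved from 0 to 0.02, and Txnrd1 (FDR = 0.0691) and G6pdx (FDR = 0.0705) lost their calls.

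Per kb of exon, the order of levels over all 6 samples was Hmox1 (76.4 to 85.2 CPM per kb), Txnrd1 (49.7 to 55.8), Srxn1 (31.8 to 36.5), Nfe2l2 (25.8 to 28.9) and G6pdx (13.7 to 15.2), each separate from the next. Gclm (10.1 to 11.0), Keap1 (6.86 to 11.3) and Gclc (6.85 to 8.33) followed and overlapped with their neighbors in this order. Nqo1 (3.86 to 4.88) and Slc7a11 (1.42 to 1.73) were lowest and did not overlap with the genes before them. Hmox1 exceeded 97.3% of all genes tested on this scale, Nqo1 52.2% and Slc7a11 32.5%. The exon length is the union over all annotated transcripts, 15522 bases for Slc7a11 and 1759 for Hmox1, so genes with rarely used long transcripts read low.

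The deposited annotation gave 7 of the 10 genes the GO term response to oxidative stress, which 317 genes of the table carry. Gclc, Gclm, Slc7a11 and G6pdx shared the term for glutathione metabolic process with 59 genes in all, and Hmox1, Gclc, Gclm and Slc7a11 the KEGG pathway Ferroptosis with 39 in all. Of these 4 genes, Hmox1 and Gclm passed the test under none of the 17 alternatives, and Gclc and Slc7a11 passed only without oe-NC sample 1 and with sample quality weights.

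Around the 10 genes, 8 lists of the wider pathway and of related systems held 93 genes found in the table, of which 87 were tested. At an FDR under 0.05, 13 (14.9%) were higher and 38 (43.7%) lower with Aqp1, and 36 did not pass, beside 16.0% and 16.6% over all genes tested. In either direction 58.6% were called, against 32.5% of all genes tested and 39.1% of those with a mean of at least 100 counts. The split of that 39.1% into higher and lower genes is not given here. The median log2FC of the 87 genes was -0.12. The shares over all genes tested are also the background for each of the lists below, which are small. The number of higher genes was 8 without oe-AQP1 sample 1 and 7 without oe-AQP1 sample 3, and the number of lower genes was 25 without oe-AQP1 sample 2. Over all genes tested, the share called in either direction fell as well, from 32.5% to 23.7% without oe-AQP1 sample 1, 22.7% without sample 2 and 22.9% without sample 3. Without oe-NC sample 1 there were 19 higher and 46 lower, with 40.1% of all genes called.

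Among 10 regulators of NRF2, 3 were higher, 2 lower and 5 did not pass (median log2FC 0.07). Btrc, the adaptor of a second ligase that marks NRF2 for destruction, rose from 21.6 ± 0.999 to 30.3 ± 1.63 CPM (SD, n = 3; log2FC = 0.48, FDR = 3.40e-04). The small MAF partners went opposite ways, with Mafk higher (log2FC = 0.32, FDR = 0.00326) and Maff lower (log2FC = -0.34, FDR = 0.00743), while Mafg did not pass (log2FC = 0.13, FDR = 0.0993). Sqstm1, the autophagy receptor that binds KEAP1, was higher (log2FC = 0.15, FDR = 0.00789), and Gsk3b, a kinase that primes NRF2 for BTRC, was lower (log2FC = -0.17, FDR = 0.00850). Cul3, Rbx1 and Bach1 had log2FC values of -0.06, 0.00 and 0.09 and did not pass.

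In the glutathione system, 6 of 20 genes tested were higher and 11 lower (median log2FC -0.20). The lower ones were led by Gpx3, a secreted glutathione peroxidase, which fell from 621.7 ± 12.5 to 399.2 ± 10.7 CPM (SD, n = 3; log2FC = -0.64, FDR = 3.36e-07). The mu class transferases Gstm4 (log2FC = -0.63, FDR = 2.74e-04) and Gstm1 (log2FC = -0.55, FDR = 3.28e-06) also fell. The alpha class transferases Gsta5 (log2FC = 1.74, FDR = 0.00675), Gsta1 (log2FC = 1.51, FDR = 3.91e-05) and Gsta4 (log2FC = 0.57, FDR = 0.00758) rose, but Gsta3, the alpha class gene with the most counts (a mean of 1673.7 per sample), was lower (log2FC = -0.22, FDR = 0.0222). Counts of Gsta1 were 210, 196 and 200 with Aqp1 and 55, 60 and 88 without, and Gsta5 had 17, 28 and 27 against 4, 5 and 12. Gsta1 and Gsta5 are close copies of each other and their expected counts were not whole in any sample, so how their reads were divided is uncertain. Gstm1 and Gstm4 had whole counts in all 6 samples but also have close copies.

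In the thioredoxin system, 1 of 11 genes was higher and 6 lower (median log2FC -0.14). Txnrd3, a thioredoxin reductase with a glutaredoxin domain, fell most (log2FC = -0.56, FDR = 1.02e-05), followed by the peroxiredoxins Prdx6 (log2FC = -0.29, FDR = 1.22e-04) and Prdx3 (log2FC = -0.25, FDR = 0.00328). Txnip, which inhibits thioredoxin, was higher (log2FC = 0.10, FDR = 0.0392), and this call was lost when any sample other than oe-NC sample 1 was left out (FDR 0.0780 to 0.151). In NADPH supply, 5 of 6 genes were lower and 0 higher by limma-voom, 0 also by edgeR, by DESeq2 and at an unadjusted p under 0.05. They were Pgls (log2FC = -0.43, FDR = 1.58e-04), Me1 (log2FC = -0.28, FDR = 0.00108), Idh1 (log2FC = -0.26, FDR = 0.0130), Tkt and Taldo1, and Pgd did not pass. The call of Idh1 was lost without oe-AQP1 sample 2 (FDR = 0.0505) or 3 (FDR = 0.0539).

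Of 7 heme and iron genes tested, the ferritin light chain gene Ftl1 rose from 3660.9 ± 56.4 to 4250.1 ± 78.8 CPM (SD, n = 3; log2FC = 0.22, FDR = 1.75e-04) and the heme transporter Slc48a1 was lower (log2FC = -0.14, FDR = 0.00955). Slc48a1 did not pass without oe-AQP1 sample 2 (FDR = 0.0552) or 3 (FDR = 0.0633). The ferritin heavy chain gene Fth1 had a log2FC of 0.03 (FDR = 0.636). Of 15 detoxification and export genes, 4 were lower and 0 higher by limma-voom, 0 also by edgeR and DESeq2, with 3 higher at an unadjusted p under 0.05. The share of all genes that were higher at that unadjusted threshold is not given here, and it cannot be under 16.0%. The exporters Abcc4 (log2FC = -0.43, FDR = 4.24e-05) and Abcc3 (log2FC = -0.43, FDR = 5.46e-04) and the epoxide hydrolase Ephx1 (log2FC = -0.37, FDR = 4.07e-05) fell most.

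**Figure D5:**
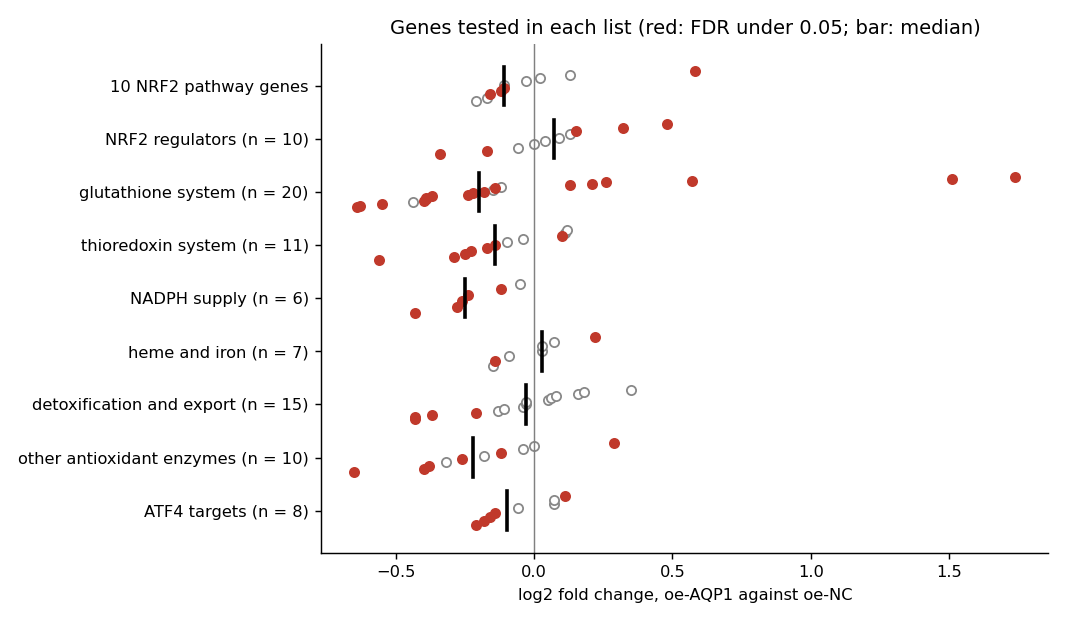
Log2FC (oe-AQP1 over oe-NC) for each gene tested in the 10 NRF2 pathway genes and 8 further lists; red points have an FDR under 0.05 by limma-voom, and black bars are list medians. Lower genes outnumber higher genes in the glutathione (11 to 6), thioredoxin (6 to 1) and NADPH (5 to 0) lists. Over all genes tested, 16.6% were lower and 16.0% higher. Of genes with a mean of at least 100 counts, 39.1% were called in either direction, and their split by direction is not given here.

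Antioxidant enzymes outside the core NRF2 set were lower in 5 of 10 cases and higher in 1 (median log2FC -0.22). The mitochondrial genes Idh2 (log2FC = -0.40, FDR = 1.56e-04) and Sod2 (log2FC = -0.38, FDR = 6.06e-05) fell. Nnt, the mitochondrial transhydrogenase that makes NADPH, was listed under 2 identifiers. The identifier with most counts was lower (388, 532 and 628 counts in oe-AQP1 and 739, 690 and 836 in oe-NC samples, log2FC = -0.65, FDR = 0.00251), but the other identifier held 208, 89 and 0 counts with Aqp1 and none without. Summed over both, Nnt was 29.6 ± 1.23 CPM with Aqp1 and 38.2 ± 0.878 CPM without (SD, n = 3), a log2 ratio of -0.37 (exact permutation p = 0.1). Msra, a methionine sulfoxide reductase, was higher (log2FC = 0.29, FDR = 0.0382), a call lost when any 1 sample was left out (FDR 0.0550 to 0.120).

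Slc7a11 is also a target of ATF4, the factor of the amino acid response, so 8 genes of that response were set beside it. Of these, 1 was higher and 4 were lower (median log2FC -0.10). Atf4 itself had a log2FC of 0.11 (FDR = 0.0133), which did not pass without oe-AQP1 sample 1 (FDR = 0.0847), 2 (FDR = 0.0706) or 3 (FDR = 0.0532) or without oe-NC sample 2 (FDR = 0.0582). The serine synthesis genes Phgdh (log2FC = -0.21, FDR = 0.00377) and Psat1 (log2FC = -0.18, FDR = 0.00400) and the asparagine synthetase gene Asns (log2FC = -0.16, FDR = 0.00278) fell. Chac1, a stress-induced gene that degrades glutathione, was the fourth lower gene (log2FC = -0.14, FDR = 0.0413). The stress-induced genes Ddit3, Trib3 and Sesn2 had log2FC values of 0.07, -0.06 and 0.07 and did not pass.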

How the data were processed

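RNA from 6 RENCA samples was sequenced as Illumina TruSeq libraries. The authors deposited expected counts per gene, not scaled between samples, and 2 columns of group means, not used here. The study's methods give GRCm39, whereas the submitters' processing notes list GRCm38, mm10, fastp, HISAT2, featureCounts and Subread with no roles. Of 78298 genes, 78168 were found in GENCODE M39 (GRCm39), the source of positions, exon lengths and windows. Strand use in counting is not given in the sources used here.

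Expected counts were rounded, filtered by filterByExpr, scaled by TMM and compared by limma-voom (limma 3.58.1, edgeR 4.0.16, R 4.3.3), with DESeq2 1.42.0 as an alternative. All fits covered all genes kept and were tested on simulated data. The 10 genes, lists and rules were chosen with earlier results of these data known. Besides the 10 genes, the text names up to 3 genes per list and direction in order of log2FC among those with an FDR under 0.05 and a mean of at least 10 counts, the genes in the ratios and the 3 genes most like Nfe2l2. Other genes named were chosen after their values were seen. For symbols with 2 identifiers, the one with more counts was tested. Single values were compared by exact permutation over samples.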

Additional observations from a re-analysis of the deposited data

How the results depend on the processing

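Keap1 was higher and Srxn1 lower at an FDR under 0.05 under all 17 alternatives, and none of the 10 genes passed an absolute log2FC of 1 in any of them. Of 170 member values under the alternatives, 139 kept their side of the threshold, 21 lost it, 10 gained it and none reversed. The number of lower members, 3 as reported, was 1 with DESeq2, with library size alone, with at least 10 counts in every sample, with protein-coding genes only and with the replicate block, and 6 with sample quality weights. The shares of all genes called were 26.7% with DESeq2, 32.6% with library size alone and 34.5% with at least 10 counts in every sample. They were 38.5% with protein-coding genes only, 31.1% with the replicate block and 41.4% with sample quality weights. The number of higher members was 2 with sample quality weights. The number of higher genes in the 8 lists was 20 with those weights, under which the share of all genes called rose from 32.5% to 41.4%. Leaving out each sample in turn gave 1 to 2 higher and 1 to 6 lower members, 7 to 19 higher and 25 to 46 lower genes in the lists, and ratio differences of -0.76 to -0.63 (Nfe2l2 to Keap1), -0.21 to -0.09 (Gclm to Gclc), -0.41 to -0.22 (Slc7a11 to Slc3a2) and -0.24 to -0.16 (Nfe2l2 to Bach1). In these fits the share of all genes tested that were called also moved, between 22.7% and 40.1%. The filter and the restriction to protein-coding genes changed how many genes were tested; the cause of the other shifts was not tested. Samples with the same number did not deviate together (r = -0.07 to 0.01 across 15522 genes). No sample correlated best with its own number alone, and only oe-AQP1 sample 1 had a tie, at r = 0.01. With the replicate block, 12 genes in the lists were higher and 33 lower. Calls with an FDR near 0.05 (Txnrd1, G6pdx) depended on the setting. Nqo1, with 217 to 284 counts per sample, had the widest interval.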
